A study of Macaca mulatta with 13 samples.

Results

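miR-103 and miR-107 are microRNAs (miRNAs), short RNAs that lead silencing proteins to messenger RNAs. Their mature 3p sequences are nearly identical and share a seed, the stretch near the front of a miRNA that pairs with its targets. They are encoded inside pantothenate kinase (PANK) genes, whose enzymes catalyse the entry step of coenzyme A synthesis, so a miRNA of lipid and glucose handling lies in a gene of the same kind of metabolism. In mice, raising miR-103 and miR-107 in liver or fat impairs glucose handling and silencing them improves insulin sensitivity, with the caveolin gene Cav1 among their targets. Rows of the deposited miRNA table were taken by name, which gave 5 rows under 4 names (miR-103-3p, miR-103-5p, miR-107-3p and miR-107-5p) out of 909 named miRNAs.

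Small RNA had been sequenced from vastus lateralis (thigh muscle) biopsies taken from rhesus monkeys (Macaca mulatta). The Control group (5 samples) ate a control diet and the CR group (8 samples) was on caloric restriction, and the study asked about molecular networks tied to preventing sarcopenia, which is muscle loss in old age. The labels used here give no age, sex, strain, or degree or length of restriction, and apart from diet the groups carry the same description. They do not state outright that every sample is a different animal, so p-values measure the spread between these samples, part of which may be technical. In a biopsy of mixed cells, fewer cells of a type and less RNA per cell cannot be told apart.

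Libraries held 1154326 counts (CR replicate 1) to 5392612 counts (CR replicate 6) in named miRNAs. The muscle and red blood cell miRNA miR-486-5p took 42.4 to 70.7% of them, so levels are given as CPM, counts scaled to a common library total with TMM factors, which ran from 0.624 to 1.76. Counts of all 7 skeletal muscle markers were present, together at 44.8 to 74.8% of counts in a library. Most of that share was miR-486-5p, while miR-208b-3p and miR-499-5p were at 0.245 and 0.367 CPM in their lowest libraries. The epithelial markers together stayed at or under 9.99 CPM, with miR-429 at 0. Control replicate 4 stood apart, with the lowest summed muscle markers (254515 CPM, of which miR-486-5p was 240983, against 343022 or more in CR). That library also had the highest summed fibroblast markers (1782 CPM, against 437 to 1450 in CR) and endothelial markers (938 CPM, against 408 to 776 in CR). The fold changes, ratio and correlation of the pair are therefore also given without it.

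In the T2T-MMU8v2.0 annotation the gene MIR103-1 lies within PANK3, MIR103-2 within PANK2 and MIR107 within PANK1, and no other miRNA gene lies within 10000 bases of any of them. PANK messenger RNAs were not analysed here. The name miR-103-3p was listed in 2 rows. These differed by 0 to 10 counts in a library, at most 0.353%, and were equal in 2 libraries, so the table does not divide the mature miRNA between the PANK2 and PANK3 loci. The row with the higher total was used.

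Nearly all reads of both miRNAs came from the 3p arm, the arm known as the functional strand. miR-103-3p had 23927 counts over the 13 libraries and miR-103-5p had 2, which were 1 in Control replicate 4 and 1 in CR replicate 4. The 5p share was 0.00836% (95% exact binomial interval 0.00101 to 0.0302%). miR-107-3p had 6148 counts and miR-107-5p had 1, in CR replicate 5, a share of 0.0163% (0.000412 to 0.0906%). These intervals cover counting error only, since reads copied by PCR do not stand for separate molecules. Where a 5p arm had a count of 0, up to 3 counts remain possible, which is 0.556 to 2.60 unscaled CPM over the libraries. Neither 5p arm passed the filter on low counts, and the results below are those of the 3p arms.

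miR-103-3p was among the more abundant of the tested miRNAs in these muscle biopsies. Its level in Control replicates 1 to 5 was 496, 354, 555, 574 and 741 CPM. In CR it ran from 272 CPM in replicate 8 to 616 CPM in replicate 1, with a median of 502. Control replicate 5 was the highest of all libraries and CR replicate 8 the lowest, and the other CR values lay within the Control range. The group levels were 544 ± 140 CPM (SD, n = 5) in Control and 480 ± 113 CPM (SD, n = 8) in CR. This placed it 53rd of 263 tested miRNAs by mean level, between miR-146b-5p, an inflammation-linked miRNA (586 ± 357 CPM in Control and 488 ± 145 in CR), and miR-409-3p of the imprinted DLK1-DIO3 locus (495 ± 328 and 464 ± 166), neither of which differed from it beyond this spread.

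miR-107-3p was less abundant, with 6148 counts beside the 23927 of miR-103-3p. Its level in Control replicates 1 to 5 was 121, 91.8, 161, 135 and 167 CPM. In CR it ran from 61.5 CPM in replicate 8 to 224 CPM in replicate 1, with a median of 132. Both extremes were CR libraries, and the Control range lay inside the CR range. Group levels were 135 ± 30.7 CPM (SD, n = 5) in Control and 132 ± 49.5 CPM (SD, n = 8) in CR, 92nd of 263. Its neighbours in that order were miR-15b-5p (155 ± 64.7 and 151 ± 76.0 CPM) and miR-30b-5p (132 ± 23.8 and 129 ± 18.2 CPM), and these levels too overlapped.

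**Figure D1:**
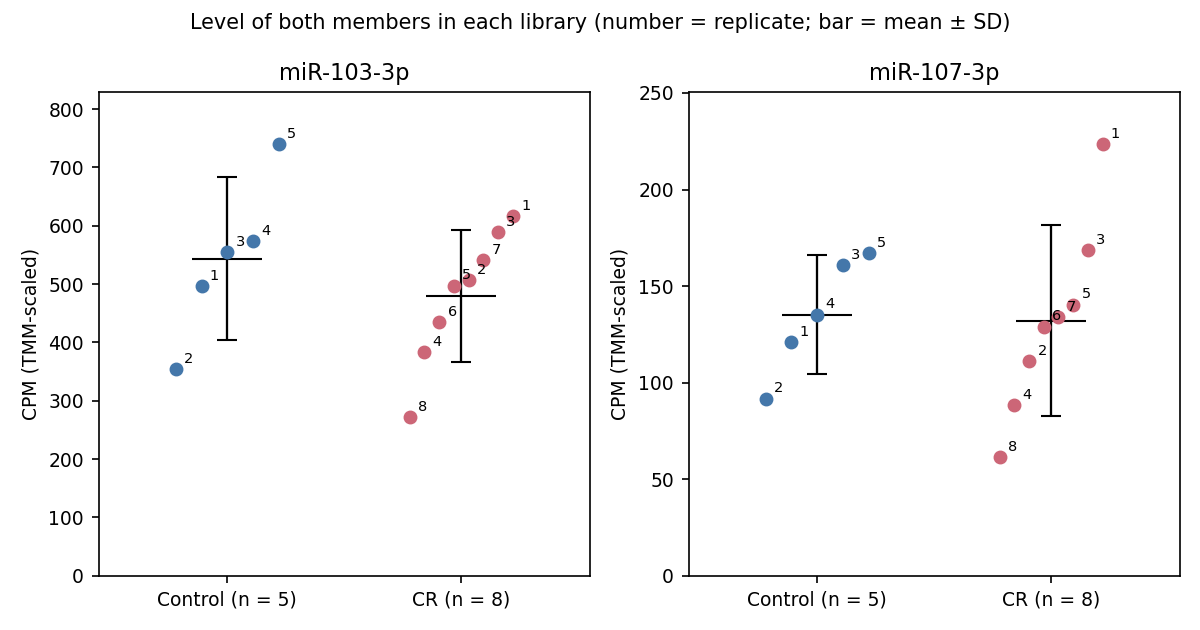
Level of miR-103-3p and miR-107-3p (CPM, TMM-scaled, axis from 0) in each of 5 Control (blue) and 8 CR (red) libraries, spread sideways by rank, with the replicate number beside each point and the mean ± SD as a bar. The groups overlap in both panels, and CR replicate 8 is lowest for both miRNAs, at 272 and 61.5 CPM.

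Before scaling, the share of all miRNA counts taken by miR-103-3p ran from 0.0170% in CR replicate 8 (95% exact binomial interval 0.0157 to 0.0183%) to 0.101% in Control replicate 4 (0.0982 to 0.104%). Group means were 0.0632% ± 0.0239 in Control (SD, n = 5) and 0.0484% ± 0.0240 in CR (SD, n = 8). For miR-107-3p the share ran from 0.00384% in CR replicate 8 to 0.0345% in CR replicate 1, with means of 0.0157% ± 0.00538 and 0.0137% ± 0.00927. Counting error was thus small beside the differences between libraries. With miR-486-5p left out of the total the means were 0.135% ± 0.0302 in Control and 0.114% ± 0.0341 in CR for miR-103-3p, and 0.0339% ± 0.00770 and 0.0316% ± 0.0145 for miR-107-3p.

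Neither miRNA passed the test for a difference between the diets. By edgeR's quasi-likelihood test the log2 fold change of miR-103-3p, CR against Control, was -0.18 ± 0.23 (SE), with an adjusted p of 0.985 and 6 of 8 CR samples below the Control mean. The value of miR-107-3p was -0.0347 ± 0.28 (SE), with an adjusted p of 0.985 and 5 of 8 CR samples below the Control mean. Thus 0 of 2 members were called, where 0% of the 263 tested miRNAs were called with Benjamini-Hochberg adjustment at 0.05. At an unadjusted p under 0.05 edgeR found 7 of 263 (2.66%), neither member among them (unadjusted p 0.443 and 0.901), and DESeq2 and limma-voom called 0 as well, with 7 each at the unadjusted threshold. In the lower direction that threshold took 1.52% of all tested miRNAs. Both fitted levels were lower in CR, as were 48.3% of all tested miRNAs, the other 51.7% being higher. Of the cell type markers tested, all 7 of skeletal muscle and both of neurons had higher fitted levels in CR. Lower were those of endothelium (3), fibroblasts (2), smooth muscle (2), red blood cells (1) and liver (1), and 4 of 5 of leukocytes. Of these markers 0 passed the adjusted threshold, and a difference in cell make-up between the diets was not tested.

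The 95% intervals say how large a change these samples leave room for. For miR-103-3p the interval ran from -0.66 to 0.30 on the log2 scale, or 0.633 to 1.23 times the Control level. That of miR-107-3p ran from -0.61 to 0.54, or 0.653 to 1.46 times. Changes within these bounds could not be resolved with 5 and 8 samples. The interval reached 0.48 to either side of the value for miR-103-3p and 0.58 for miR-107-3p, against a median of 0.69 over all tested miRNAs. The biological coefficient of variation that edgeR estimated was 0.304 for miR-103-3p, the 32nd lowest of 263, and 0.357 for miR-107-3p, the 79th lowest, with a median of 0.407.

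Single libraries moved these small values. Without Control replicate 4 they were -0.16 for miR-103-3p and -0.0347 for miR-107-3p. For miR-103-3p the log2 fold change was at its lowest, -0.30, without Control replicate 2 and at its highest, -0.10, without Control replicate 5. For miR-107-3p it fell to -0.23 without CR replicate 1 and came to 0.0440 without Control replicate 3, and it was also above 0 without Control replicate 5, CR replicate 4 or CR replicate 8. When only library totals were used for scaling, the median of all miRNAs went from 0.0103 to -0.26, and the values were -0.39 for miR-103-3p and -0.20 for miR-107-3p.

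**Figure D2:**
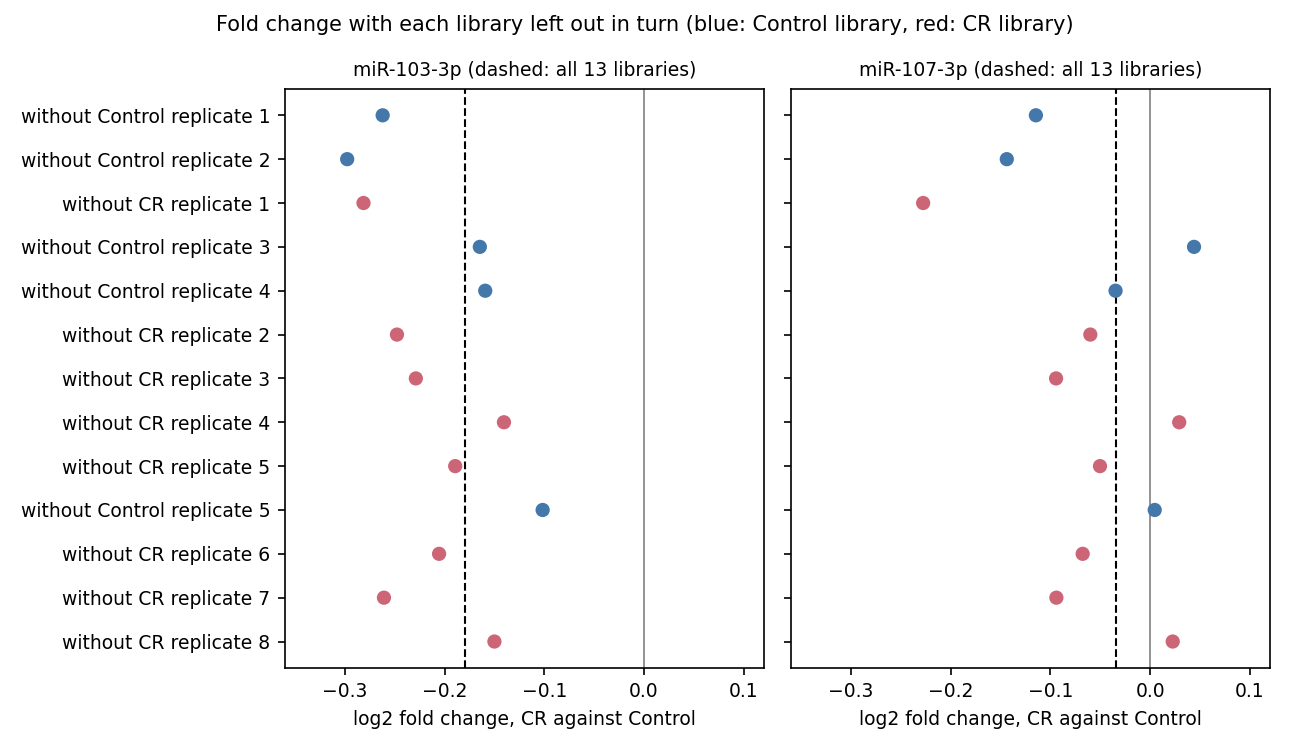
Log2 fold change of miR-103-3p (left) and miR-107-3p (right), CR against Control, with each of the 13 libraries left out in turn (blue where a Control library and red where a CR library was left out). The dashed line is the value with all libraries (-0.18 and -0.0347) and the grey line is 0, which the points of miR-103-3p do not cross and 4 of the 13 points of miR-107-3p do.

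The balance between the paralogues was measured as their ratio within a library, which needs no scaling factor. Since the sequences are nearly identical, and how the authors' counting assigned reads that fit both is not known, this ratio is uncertain in its absolute size. In Control replicates 1 to 5 there were 4.10, 3.85, 3.45, 4.25 and 4.43 counts of miR-103-3p for each count of miR-107-3p. In CR the ratio ran from 2.76 in replicate 1 to 4.55 in replicate 2, with a median of 3.79. The lowest and the highest ratio were both in CR. As a share of the pair, miR-107-3p took 20.03% ± 1.60 (SD, n = 5) in Control and 21.1% ± 2.92 (SD, n = 8) in CR.

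The log2 ratio of miR-103-3p to miR-107-3p was 2.00 ± 0.14 in Control and 1.91 ± 0.25 in CR. The difference of -0.0870 had a two-sided exact permutation p of 0.5 over 1287 splits, where the smallest possible p is 0.000777, with 4 of 8 CR ratios under the mean of Control. CR replicate 1, the shallowest library, had the largest share of miR-107-3p, 26.6% (95% exact binomial interval 24.4 to 28.9%). Next came CR replicate 6 at 22.9% (21.2 to 24.7%), the only other library whose interval reached that of CR replicate 1. Without CR replicate 1 the difference in the log2 ratio was -0.0226 (exact permutation p 0.819), and without Control replicate 4 it was -0.0654 (exact permutation p 0.657).

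**Figure D3:**
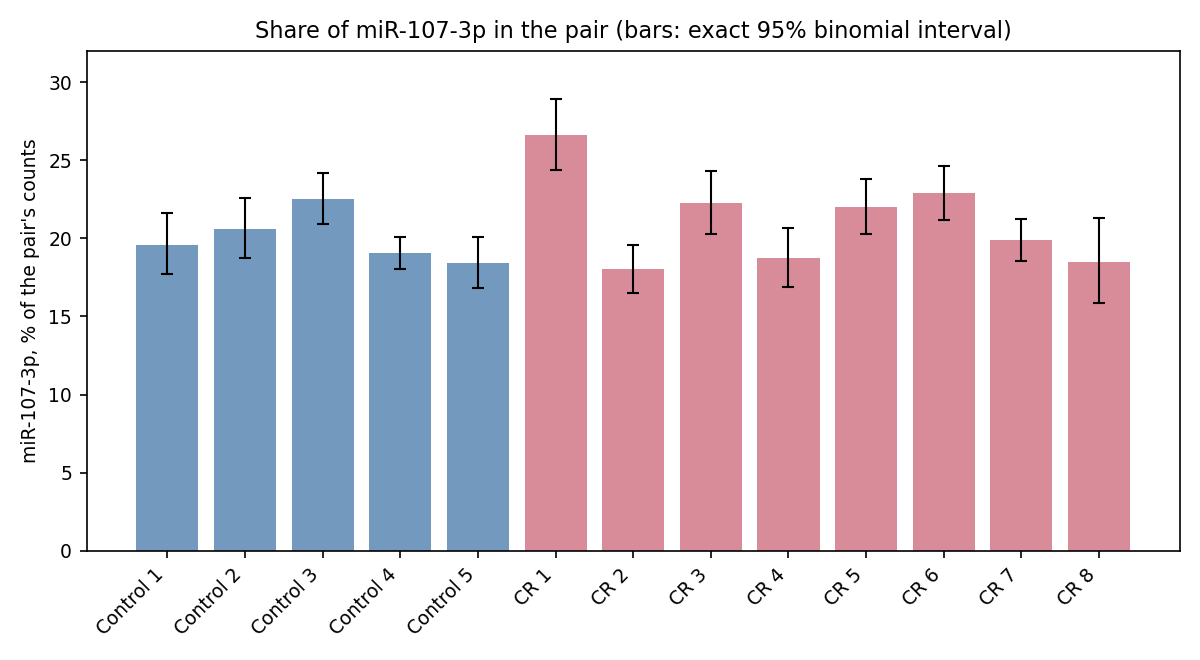
Share of miR-107-3p in the summed counts of miR-103-3p and miR-107-3p (percent, axis from 0) in each Control (blue) and CR (red) library, with exact 95% binomial intervals that cover counting error only. The shares run from 18.0% in CR replicate 2 to 26.6% in CR replicate 1.

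Across the 13 libraries both miRNAs varied together. Pearson's r of their log2 CPM was 0.91 (permutation p 5.0e-05) and Spearman's rho was 0.90 (permutation p 5.0e-05), both two-sided with 100000 resamples. This was the only relation tested with a p, so no adjustment was made. Without CR replicate 8 and Control replicate 5, the libraries farthest from the median of miR-103-3p, r was 0.86 (n = 11, permutation p 6.1e-04) and rho 0.86 (permutation p 0.00114). Within the 8 CR samples r was 0.94 and rho 0.88 (exact permutation p 0.00104 and 0.00724). No value was computed within the 5 Control samples. Both values of a library share a scaling factor, and the division of reads between such similar sequences is not known. With library totals alone r was 0.97, and without Control replicate 4 it was 0.91.

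**Figure D4:**
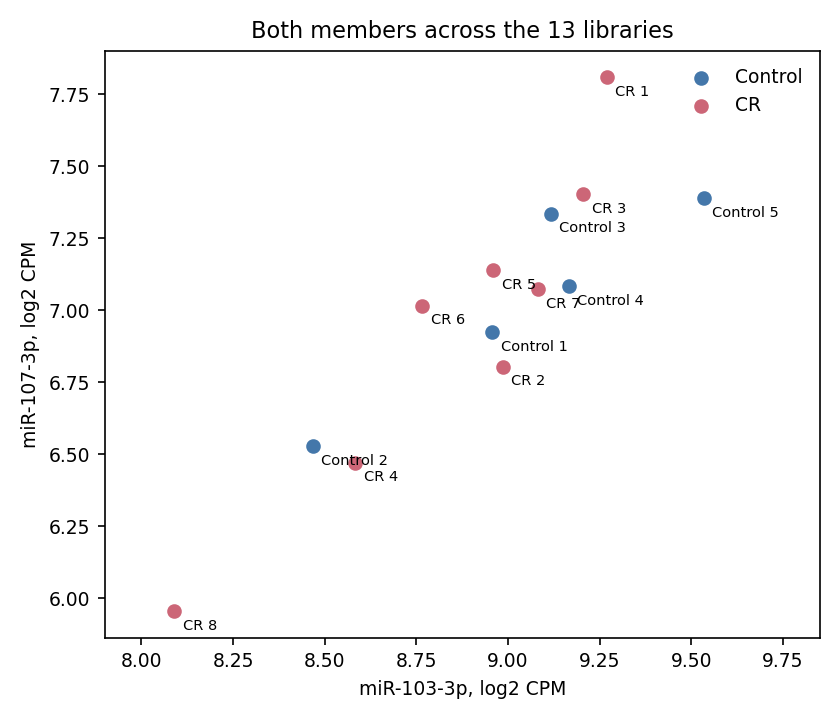
Log2 CPM of miR-107-3p against that of miR-103-3p in the 13 libraries (blue, Control; red, CR). The points rise together (r = 0.91), from CR replicate 8 at the lower left to CR replicate 1 and Control replicate 5 at the upper right, with both groups along the same band.

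With TMM scaling, the miRNA whose levels ran most like both, next to each other, was miR-532-5p, encoded within the chloride channel gene CLCN5. Likeness here is Spearman's rho of log2 CPM over 13 libraries among the 99 tested miRNAs with a mean of at least 100 CPM, given as a description. For miR-532-5p rho was 0.77 with miR-103-3p and 0.88 with miR-107-3p. After it came miR-126, the endothelial miRNA within EGFL7 (0.65), and miR-140-3p, a connective tissue miRNA within WWP2 (0.62), for miR-103-3p. For miR-107-3p they were miR-24-3p (0.69) and miR-27b-3p (0.62), both with a gene copy within AOPEP. The likeness of miR-532-5p was not shared by miR-500a-3p, whose gene lies within 10000 bases of MIR532. Its rho was -0.34 with miR-103-3p and -0.21 with miR-107-3p (0.50 and 0.48 with library totals alone). The median rho over the other 98 miRNAs was -0.0165 for miR-103-3p and -0.00824 for miR-107-3p, and with library totals alone it was 0.59 and 0.57. The order also depends on the scaling. With library totals miR-151-3p stood at 0.951 with miR-103-3p, above miR-107-3p itself (0.945), and at 0.93 with miR-107-3p, while miR-532-5p had 0.87 and 0.86. Without Control replicate 4, and with TMM scaling, miR-532-5p kept its place (0.78 and 0.89), as did miR-24-3p (0.83) and miR-27b-3p (0.76) for miR-107-3p. For miR-103-3p, miR-24-3p (0.76) and miR-16-5p (0.69) then came before miR-126 (0.64), and miR-140-3p (0.61) came after miR-221-3p (0.62).

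The level of miR-532-5p was 259 ± 24.3 CPM in Control (SD, n = 5) and 270 ± 72.6 CPM in CR (SD, n = 8), with the lowest value, 172 CPM, in CR replicate 8 and the highest, 400 CPM, in CR replicate 1. Those libraries were also the lowest and the highest for miR-107-3p. None of these miRNAs passed edgeR's test, each with an adjusted p of 0.985. The log2 fold changes were 0.0600 ± 0.22 (SE) for miR-532-5p, -0.21 ± 0.27 for miR-126, -0.40 ± 0.24 for miR-140-3p, 0.10 ± 0.21 for miR-24-3p and 0.20 ± 0.23 for miR-27b-3p. The sign for miR-532-5p turned with 4 of the 11 settings that keep all libraries, and without Control replicate 1, CR replicate 1 or CR replicate 7. Without Control replicate 5 the value of miR-126 was -0.0231. Without Control replicate 4 those of miR-140-3p, miR-24-3p and miR-27b-3p were -0.26, 0.0298 and 0.0364, and without CR replicate 1 those of miR-24-3p and miR-27b-3p were -0.0520 and 0.0895.

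miR-103 and miR-107 belong to a wider group with the miR-15, miR-16, miR-195, miR-424, miR-497 and miR-503 miRNAs, which share much of the seed and are known for restraining the cell cycle. In this muscle the most abundant was miR-16-5p, at 1015 ± 451 CPM in Control (SD, n = 5) and 932 ± 287 CPM in CR (SD, n = 8), followed by miR-103-3p, miR-15b-5p and miR-107-3p. Levels under 100 CPM were those of miR-15a-5p (48.1 ± 17.5 and 39.5 ± 12.8), miR-195-5p (44.7 ± 20.7 and 32.3 ± 8.54) and miR-497-5p (29.7 ± 9.74 and 23.6 ± 10.4). Mature miRNAs have much the same length, so CPM is compared without a length correction, although ligation can favour some sequences. Of the summed CPM of the members and the listed miRNAs tested, miR-103-3p took 28.2% ± 4.05 in Control and 27.2% ± 4.24 in CR, and miR-107-3p took 7.06% ± 1.17 and 7.32% ± 1.95.

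Of the 7 miRNAs listed with them in this seed group 6 were tested, and 0 passed in either direction. The fitted values of all 6 were lower in CR, and their median was -0.31 on the log2 scale, beside 0.0103 over all 263 tested. They kept this direction under each other scaling tried, but each of those scalings also lowered the median over all tested miRNAs. It went from 0.0103 to between -0.0218 and -0.26, so the kept direction carries little weight. With libraries left out, miR-15b-5p was above 0 without Control replicate 1 or 5 or without CR replicate 1, 5 or 8, and miR-16-5p without Control replicate 5. The values were -0.47 ± 0.29 (SE) for miR-195-5p, -0.33 ± 0.32 for miR-497-5p, -0.28 ± 0.29 for miR-15a-5p, -0.12 ± 0.28 for miR-16-5p and -0.0390 ± 0.35 for miR-15b-5p, each with an adjusted p of 0.985 in edgeR. Without Control replicate 4 the value of miR-195-5p was -0.16, its level in that library being 78.0 CPM against 23.2 to 48.7 CPM in the other Control libraries. Without Control replicate 5 the value of miR-15a-5p was -0.11, and that of miR-497-5p was -0.51 without Control replicate 1 and -0.54 without CR replicate 1. These are not independent of each other, since each of the miR-15 genes lies in a host gene beside a copy of miR-16, and miR-195 lies beside miR-497. The miR-424 row with the higher total was its 3p arm, at 6.20 ± 3.38 CPM in Control and 4.58 ± 2.36 in CR (-0.40 ± 0.46, and -0.14 without Control replicate 1), which does not carry the shared seed. The seed-bearing miR-424-5p had 16 counts in 6 libraries. For miR-503 the 3p arm, which also lacks the shared seed, had 15 counts in all and the seed-bearing 5p arm had 6 counts in 4 libraries. Neither miR-424-5p nor either arm of miR-503 was tested.

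Levels of the seed group ran with those of the members to differing degrees. Spearman's rho over 13 libraries with miR-103-3p was 0.63 for miR-195-5p, 0.60 for miR-497-5p, 0.58 for both miR-15a-5p and miR-16-5p and 0.26 for miR-15b-5p. With miR-107-3p it was 0.38, 0.46, 0.57, 0.58 and 0.27 in the same order. The median over the 98 miRNAs compared above, each with a mean of at least 100 CPM, was -0.0165 and -0.00824. These values use TMM scaling. With library totals alone miR-16-5p had 0.85 and 0.86, beside medians of 0.59 and 0.57.

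**Figure D5:**
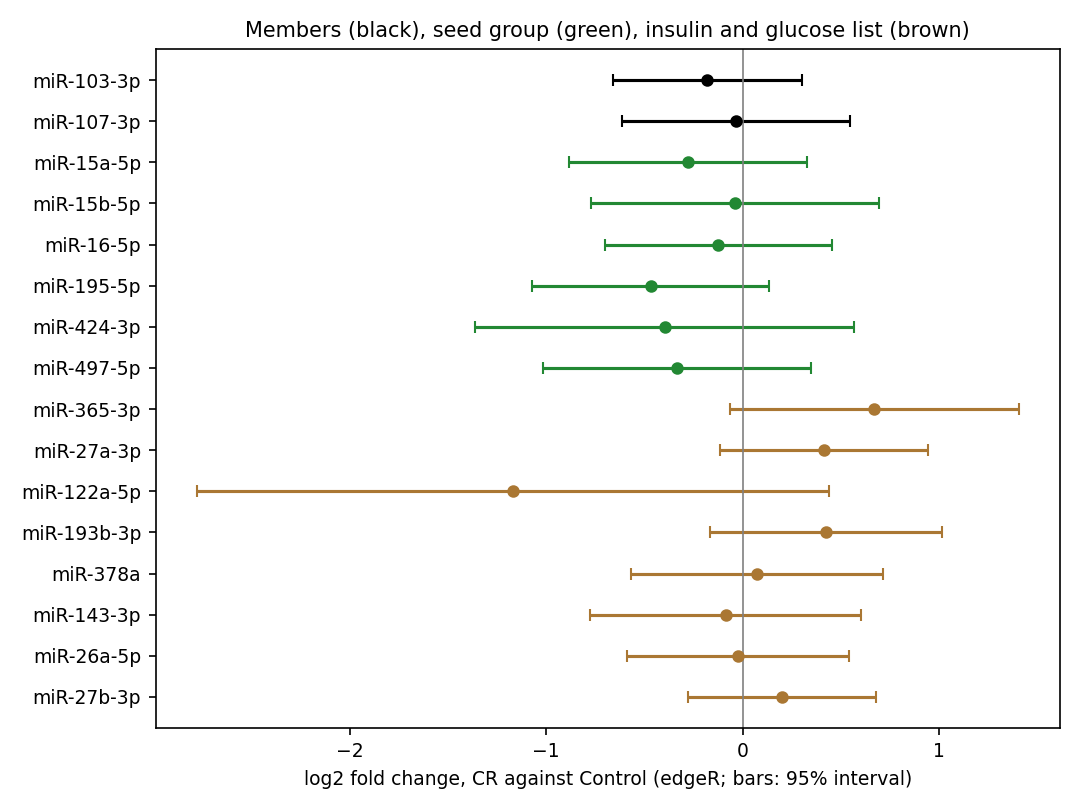
Log2 fold change, CR against Control, with its 95% interval from edgeR for the 3p arms of miR-103 and miR-107 (black), the tested miRNAs of the seed group (green) and the named miRNAs of the insulin and glucose list (brown). The green miRNAs include miR-424-3p, an arm that does not carry the shared seed. Every interval crosses 0, from -0.66 to 0.30 for miR-103-3p and from -0.61 to 0.54 for miR-107-3p.

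Other miRNAs tied to insulin and glucose handling were set beside the pair. Of 22 names listed 17 were tested, and 0 passed in either direction, as for all 263 tested miRNAs. Fitted levels were higher in CR for 7 and lower for 10, where 48.3% of all tested miRNAs were lower. Beside 0.0103 over all tested, the median log2 fold change of the 17 was -0.0255. The 4 with the smallest p were miR-365-3p and miR-193b-3p, known from brown fat and muscle differentiation (0.67 ± 0.35 and 0.43 ± 0.28, SE), miR-27a-3p, a regulator of adipogenesis (0.41 ± 0.25), and the liver miRNA miR-122a-5p (-1.17 ± 0.77), each with an adjusted p of 0.985 in edgeR. The level of miR-122a-5p was low, with 156 counts in all, a mean of 4.27 CPM and a lowest value of 0.571 CPM. Without Control replicate 5 the value of miR-122a-5p was 0.39, without CR replicate 8 that of miR-365-3p was 0.38, without CR replicate 1 that of miR-27a-3p was 0.16, and that of miR-193b-3p was 0.25 without Control replicate 4 and 0.22 without CR replicate 8.

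The 4 most abundant of that list stood far above the pair. miR-378a, encoded within the metabolic coactivator gene PPARGC1B, stood at 78378 ± 35740 CPM in Control (SD, n = 5) and 82337 ± 21056 CPM in CR (SD, n = 8). miR-143-3p, a smooth muscle miRNA that impairs insulin signalling in mouse liver, was at 24627 ± 11735 and 23185 ± 10462 CPM. miR-26a-5p, which improves insulin sensitivity in mice, was at 22529 ± 7676 and 22134 ± 7692 CPM, and miR-27b-3p at 8749 ± 2688 and 10061 ± 2070 CPM. The log2 fold changes were 0.0711 ± 0.31 (SE) for miR-378a, which was -0.13 with library totals, -0.0870 ± 0.33 for miR-143-3p and -0.0255 ± 0.27 for miR-26a-5p. The name miR-128, an insulin-signalling miRNA, was split into miR-128a-3p and miR-128b-3p, so neither is counted among the 17 tested. These had mean levels of 312 and 341 CPM over the 13 libraries and log2 fold changes of -0.15 ± 0.29 and -0.16 ± 0.29.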

How the data were processed

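Per the labels' protocols, total RNA was extracted with Trizol, small RNAs were cut from a gel, and a TruSeq small RNA kit (Illumina) was used for the libraries. The build was Mmul 8.0.1, per the submitters' processing notes, while the aligner and the counter were not given in the sources used here. Values in the deposited table are unnormalised counts for each miRNA and library, judged from the values, which are whole numbers. Of 1703 rows, 702 predicted loci were left out. For each of 67 repeated names only the row with the most counts was used, and 3 pairs of names differing by at most 1% were merged, which left 909.

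The test was that of edgeR 4.0.16 in R 4.3.3 (robust quasi-likelihood fit, TMM, filterByExpr), which kept 263 miRNAs with at least 99.959% of each library's counts. Adjusted p-values cover all 263. SE is the fold change divided by the root of F. Log2 CPM used a prior count of 2, and the ratio 0.5. Permutation tests used scipy 1.17.1. The test was also run on data simulated from its own fitted model, which cannot show whether that model holds for these libraries. The outcome is not given here. Alternatives were DESeq2 1.42.0, limma-voom (limma 3.58.1), other scalings and filters, summed copies, a block for replicate number, a covariate for sample number, and leaving out each library. The host genes come from the annotation of another build, used for names and containment only. Members, lists and the rule for named miRNAs (the members, the seed group, the 4 smallest p and 4 highest levels of the insulin list, the 3 miRNAs most like each member, and neighbours in level) were chosen with earlier results of these data known.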

Additional observations from a re-analysis of the deposited data

Results flagged for a closer look

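In 48 groups of library values examined (24 measures in Control and in CR), 5 held a library far from the rest of its group, and chance gives about 1 in 20 groups. None was a value of miR-103-3p, of miR-107-3p or of their ratio. All values here are log2 CPM. In Control replicate 4, miR-378a stood at 14.49 against 16.1 to 16.7 in the other Control libraries. That library also held miR-146b-5p at 10.25, against 8.36 to 8.88. In Control replicate 5 miR-122a-5p was at 4.63, against 1.16 to 1.52. CR replicate 1, the shallowest library, held miR-424-3p at 0.151, against 1.90 to 3.15 in the other CR libraries, and miR-27a-3p at 9.23, against 7.73 to 8.20.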

How the results depend on the processing

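Each of the 24 other settings (edgeR, DESeq2 and limma-voom) called 0 miRNAs, with 2 to 28 at an unadjusted p under 0.05. With each library left out in turn the log2 fold change ran from -0.30 to -0.10 for miR-103-3p and from -0.23 to 0.0440 for miR-107-3p, the difference in log2 ratio from -0.14 to -0.0226, and Pearson's r of the pair from 0.83 to 0.93. Over the 11 settings with all libraries miR-103-3p ran from -0.39 to -0.0473 and miR-107-3p from -0.20 to 0.0814. Same-numbered Control and CR samples did not deviate together (correlations of deviations -0.24 to -0.0474 over 5 numbers), so the numbers were not taken as pairs. With the replicate block, miR-107-3p was at 0.0709, miR-378a at -0.00875, miR-143-3p at 0.0295 and miR-409-3p at 0.17, the mean paired difference in log2 ratio was -0.12 (exact permutation p 0.5, smallest possible 0.0625), and 2 miRNAs had an unadjusted p under 0.05. With the sample number as covariate miR-107-3p was at 0.0814 and miR-378a at -0.22. With library totals alone miR-378a was at -0.13, miR-532-5p at -0.16 and miR-24-3p at -0.0618, with upper quartile factors miR-378a was at -0.00275 and miR-532-5p at -0.00107, without miR-486-5p in the totals miR-532-5p was at -0.0316, with no filter it was at -0.0330, and with limma-voom miR-409-3p was at 0.0213. The cause was not tested. Leaving out libraries also turned miR-15b-5p (-0.23 to 0.12), miR-16-5p (-0.24 to 0.13), miR-122a-5p (-1.61 to 0.39), miR-378a (-0.16 to 0.20), miR-143-3p (-0.29 to 0.11), miR-26a-5p (-0.18 to 0.12), miR-532-5p (-0.0864 to 0.10), miR-24-3p (-0.0520 to 0.15), miR-146b-5p (-0.51 to 0.19), miR-409-3p (-0.36 to 0.37) and miR-30b-5p (-0.13 to 0.0724). Spearman's coefficient of miR-532-5p ran from 0.71 to 0.88 with miR-103-3p and from 0.85 to 0.94 with miR-107-3p, which was tried after seeing the data. Counts of miR-107-3p were 150 to 1104 in a library, against 663 to 4688 for miR-103-3p, so its relative counting error was the larger of the 2.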

Other observations

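The miRNAs that ran most opposite to the pair, singled out after their values were seen, were miR-193b-3p and miR-574. Spearman's rho over 13 libraries between miR-193b-3p and miR-103-3p was -0.91 (-0.94 without Control replicate 4), and miR-193b-3p was at its highest, 2251 CPM, in CR replicate 8, where miR-103-3p was at its lowest. With miR-107-3p the value of miR-193b-3p was -0.75, beside -0.75 for miR-423-5p, and without Control replicate 4 miR-150-5p (-0.85) was further below 0 than miR-193b-3p (-0.83). For miR-574 rho was -0.87 with miR-103-3p and -0.87 with miR-107-3p. With library totals alone these values were -0.48 (miR-103-3p) and -0.51 (miR-107-3p) for miR-193b-3p and -0.17 and -0.32 for miR-574, so their size depends on the scaling. On that scale the miRNA counted most, miR-486-5p, had a rho of -0.91 with miR-103-3p and -0.81 with miR-107-3p, against -0.48 and -0.41 with TMM factors. Since miR-486-5p took 42.4 to 70.7% of a library's counts, shares of other miRNAs tend to fall as it rises. How much of its negative rho with library totals comes from that scale was not tested. These are descriptions, with no test.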
